A study of Mus musculus with 20 samples.

Results

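The regions described here are stretches of chromatin that were open in wild-type mouse embryonic stem cells (ESCs). They were not called open in wild-type cardiomyocyte cultures derived from such cells, and were called open in the same kind of culture labelled Mettl3-KO. They are named kept regions below. The intervals of all 12 deposited ATAC-seq lists were merged where they overlapped by at least 1 bp, which gave 193427 union regions. A union region was a kept region if an interval of 3 of 3 ESC WT libraries, 0 of 3 CM WT libraries and 3 of 3 CM KO libraries lay in it. The regions were thus chosen by the ATAC-seq calls of these 9 libraries, whose values in them are descriptions, while the 3 ESC KO libraries took no part. This rule took 1127 regions, 0.583% of all union regions. CM stands for the cultures labelled as differentiated cardiomyocytes, and KO for the genotype labelled Mettl3-KO.

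All groups were of strain C57BL/6. The ESC WT and ESC KO groups were undifferentiated cells, and the CM WT and CM KO groups were their derivatives, obtained by forming embryoid bodies in serum medium with ascorbic acid and plating these on gelatin. ATAC-seq had 3 libraries in each of 4 groups, and sequencing of chromatin-associated RNA and of its m6A-containing fraction had 1 library per group. How the Mettl3 allele was made, whether a line is 1 clone, and whether replicates are separate cultures are things that the sources used here do not state. A p-value over libraries is therefore about library spread alone, and that spread may be technical.

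ATAC-seq inserts sequencing adapters into DNA that nucleosomes do not cover, so an interval called over background marks accessible DNA such as a promoter or an enhancer. Mettl3 encodes the catalytic subunit of the nuclear complex that methylates adenosine in RNA to N6-methyladenosine (m6A), and chromatin-associated RNA carries this mark too. When ESCs leave pluripotency, many accessible sites bound by pluripotency factors close, and others open at genes of the new lineage.

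To show what the starts with a kept region look like in sequence, 8 RefSeq promoter windows (GRCm38.p6, 250 bases before to 50 after the start) that overlap a kept region are printed. Elavl3, a neuronal RNA-binding protein, is shown because it belongs to the gene lists used here. The other windows were chosen after their values were seen, to show windows of differing base composition and the matches found. The Adad2 window is chr8:119612463-119612762 on the plus strand, and Adad2 is known for its role in spermatogenesis. The Rnf212 window is chr5:108774978-108775277 on the minus strand, and Rnf212 acts in meiotic crossover formation. The Dmrtb1 window is chr4:107683540-107683839 on the minus strand, and Dmrtb1 is a DM-domain factor of the testis. The Elavl3 window is chr9:22051974-22052273 on the minus strand. The Slc2a5 window is chr4:150119094-150119393 on the plus strand, and Slc2a5 encodes a fructose transporter. The Zbtb32 window is chr7:30598860-30599159 on the minus strand, and Zbtb32 is a zinc finger repressor known from lymphocytes. The Shroom4 window is chrX:6577036-6577335 on the plus strand, and Shroom4 encodes an actin-associated protein. The Arhgef2 window is chr3:88615893-88616192 on the plus strand. Capitals mark matches, on either strand, to the motifs listed in the next paragraph. All capitals in Dmrtb1, and the run in Slc2a5 that opens with CCAG, mark the paired TFCP2L1 motif, which has CCAG at both ends.
Adad2: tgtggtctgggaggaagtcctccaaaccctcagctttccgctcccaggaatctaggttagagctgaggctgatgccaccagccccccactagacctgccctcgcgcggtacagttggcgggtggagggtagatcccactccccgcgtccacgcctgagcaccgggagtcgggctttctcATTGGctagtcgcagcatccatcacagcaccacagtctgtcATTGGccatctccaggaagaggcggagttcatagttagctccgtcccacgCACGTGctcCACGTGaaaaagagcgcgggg
Rnf212: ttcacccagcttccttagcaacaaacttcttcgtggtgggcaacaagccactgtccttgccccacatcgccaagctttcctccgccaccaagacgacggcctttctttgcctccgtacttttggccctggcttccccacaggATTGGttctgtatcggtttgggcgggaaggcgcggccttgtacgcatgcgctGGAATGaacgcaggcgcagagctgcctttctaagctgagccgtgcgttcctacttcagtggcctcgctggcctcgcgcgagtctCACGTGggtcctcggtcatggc
Dmrtb1: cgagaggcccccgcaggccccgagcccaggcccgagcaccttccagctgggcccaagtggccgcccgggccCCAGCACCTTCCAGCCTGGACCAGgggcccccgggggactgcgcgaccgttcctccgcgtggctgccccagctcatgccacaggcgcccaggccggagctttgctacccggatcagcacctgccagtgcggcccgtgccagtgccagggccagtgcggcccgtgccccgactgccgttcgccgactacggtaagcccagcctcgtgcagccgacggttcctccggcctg
Elavl3: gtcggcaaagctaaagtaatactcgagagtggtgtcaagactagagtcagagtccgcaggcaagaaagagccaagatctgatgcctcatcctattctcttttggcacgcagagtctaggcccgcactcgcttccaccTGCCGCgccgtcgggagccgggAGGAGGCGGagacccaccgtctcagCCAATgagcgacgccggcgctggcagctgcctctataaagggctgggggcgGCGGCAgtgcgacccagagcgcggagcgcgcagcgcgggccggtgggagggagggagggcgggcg
Slc2a5: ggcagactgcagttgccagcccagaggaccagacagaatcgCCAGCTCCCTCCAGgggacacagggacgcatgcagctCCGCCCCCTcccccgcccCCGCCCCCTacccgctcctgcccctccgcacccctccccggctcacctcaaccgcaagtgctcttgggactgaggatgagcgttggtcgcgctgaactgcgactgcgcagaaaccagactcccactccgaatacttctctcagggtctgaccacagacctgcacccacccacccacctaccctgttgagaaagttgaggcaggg
Zbtb32: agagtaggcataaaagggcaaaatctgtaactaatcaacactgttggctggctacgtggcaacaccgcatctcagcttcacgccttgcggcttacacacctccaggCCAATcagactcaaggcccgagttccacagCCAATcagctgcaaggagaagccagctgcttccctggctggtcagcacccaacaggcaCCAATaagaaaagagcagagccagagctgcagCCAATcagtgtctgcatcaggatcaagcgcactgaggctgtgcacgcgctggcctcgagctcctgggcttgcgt
Shroom4: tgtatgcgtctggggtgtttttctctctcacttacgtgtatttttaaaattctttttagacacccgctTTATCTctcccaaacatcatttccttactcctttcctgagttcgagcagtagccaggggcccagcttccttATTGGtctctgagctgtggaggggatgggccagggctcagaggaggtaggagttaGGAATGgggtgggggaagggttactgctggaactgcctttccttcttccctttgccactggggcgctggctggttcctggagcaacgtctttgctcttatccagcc
Arhgef2: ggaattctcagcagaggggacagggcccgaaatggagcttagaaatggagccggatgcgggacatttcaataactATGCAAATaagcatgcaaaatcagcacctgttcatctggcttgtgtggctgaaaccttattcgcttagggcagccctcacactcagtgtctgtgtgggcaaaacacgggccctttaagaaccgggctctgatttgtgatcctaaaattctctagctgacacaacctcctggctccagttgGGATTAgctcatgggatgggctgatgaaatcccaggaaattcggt

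The motifs were searched on both strands, those of 10 letters or more being given by name. For pluripotency factors they were the octamer ATTTGCAT, the SOX letters ACAATG, the OCT-SOX composite, CAAGGTCA of ESRRB and NR5A2, GGGTGTGG of KLF factors, TTCCNGGAA of STAT3 and the paired TFCP2L1 motif. For lineage factors they were AGATAA of GATA factors, MEF2, the TEAD letters GGAATG, and the AP-1 letters TGANTCA. The FOX family was searched as TGTTTAC and the OTX family as TAATCC. General motifs were the CTCF core AGGNGGCNG, the E-box CACGTG, NRF1, the NFY letters CCAAT and the letters TGCCGC of ZFP57. The octamer and SOX letters are parts of the composite. A kept region overlapped 36 of the 32851 windows in the RefSeq table. CCAAT was in 17 of these 36 windows (47.2%, 95% exact binomial interval 30.4 to 64.5%), in 35.5% of the 248 windows overlapping a region closed in both genotypes, and in 37.4% of all windows. GGAATG was in 25% of the 36 windows and in 14.7% of all windows. The octamer was in 1 of the 36, that of Arhgef2, against 1.74% of all windows, and the composite was in 0 of the 36. SOX letters were in 13.9% and 12.6%, CTCF core letters in 16.7% and 15.4%, and E-box letters in 11.1% and 7.15% of the 36 windows and of all windows. AGATAA was in 5.56% of the 36 windows, against 11.2% of all windows. Every share of all windows named here lay inside the interval of the share in the 36 windows, so at this number no difference was detectable. The median GC content was 52.0% in the 36 windows and 52.7% in all windows. The printed windows spanned 49.7% GC at Arhgef2 to 74.7% GC at Dmrtb1. Windows that are not printed lay beyond this span, among them Tex13d at 43.7% and Runx3 at 77.3% GC. Adad2 has CACGTG at 2 places and CCAAT, read on the other strand as ATTGG, at 2 places.

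The 12 lists held 70132 to 119307 intervals, fewest in CM KO (73177 ± 3128, SD, n = 3), against 88791 ± 5064 in CM WT, 112503 ± 6215 in ESC WT and 114635 ± 2404 in ESC KO. The background pileup that each list's fold and p imply, a stand-in for depth, was 1.58 to 1.72 in CM KO, 2.09 to 2.53 in CM WT and 1.64 to 1.92 in the ESC groups. CM KO lists thus had fewer intervals and a lower background than CM WT lists, while the rule asks for calls in CM KO and none in CM WT. The median fold enrichment of all called regions was higher in CM KO (5.28, 5.42 and 5.04) than in CM WT (4.82, 4.54 and 4.80). The part of these differences between the lists in the choice of kept regions was not tested. The labels of CM KO replicate 3 name RNA as its molecule, and its list has the layout of the others and shared calls with the same group as they did. Leaving it out of the rule gave 1824 regions, leaving out CM KO replicate 1 gave 1956, and leaving out CM WT replicate 2 gave 1758. Any 2 libraries of a group shared 67.4 to 75.3% of their calls, and libraries of different groups 42.9 to 69.4%.

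In the chromatin RNA, the pluripotency list was lower in both CM libraries than in the ESC libraries, and higher in CM KO than in CM WT. Its summed level over 29 genes found was 180 RPKM (read density scaled by gene length and library size) in ESC WT and 168 in ESC KO, against 35.7 in the WT and 49.0 in the KO cultures, and 24, 27, 12 and 17 of the 29 reached 1 RPKM. Nanog, a core pluripotency factor, was at 5.89, 7.17, 0.842 and 1.76 RPKM in the same order. Zfp42, a naive-state marker, was at 9.20, 11.2, 0.837 and 2.02 RPKM, and Pou5f1 was at 5.76, 5.10, 1.34 and 1.32 RPKM. Dppa3 was listed at 0 in CM WT alone. Sarcomere genes summed to 16.3 RPKM in CM WT and 7.08 in CM KO, where 5 and 1 of 18 reached 1 RPKM and Myl2 was listed at 0 in CM KO. Cardiac transcription factors summed to 13.2 and 9.97 RPKM, fibroblast and matrix genes to 50.0 and 28.5, endoderm genes to 17.8 and 7.24, and blood and endothelial genes to 46.2 and 51.8 RPKM. Transcripts of several lineages were thus present in both CM libraries. In such bulk samples, fewer cells with an open region and less opening per cell cannot be told apart. The part of the higher pluripotency level of CM KO in the count of kept regions was not tested.

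Of the 22155 regions open in 3 of 3 ESC WT and 0 of 3 CM WT libraries (11.5% of all union regions), most were closed in CM KO as well. They were called in 0 CM KO libraries at 15304 regions (69.1%), in 1 at 3876, in 2 at 1848 and in 3 at 1127 (5.09%). The first of these sets, the regions closed in both genotypes, is the comparison set throughout. Read from the other side, 41263 regions (87.7%) of those called in all ESC WT and all CM KO libraries were called in all CM WT libraries too, and 1127 (2.39%) in none. These counts are the rule itself and carry no test.

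The 2 directions of the CM comparison had different origins in ESCs. Among the 1458 regions called in 3 of 3 CM KO and 0 of 3 CM WT libraries (0.754% of union regions), 1127 (77.3%) were the kept regions, open in all ESC WT libraries, and 121 (8.30%) were open in no ESC WT library. Among the 7225 regions called in 3 of 3 CM WT and 0 of 3 CM KO libraries (3.74%), 977 (13.5%) were open in all and 5586 (77.3%) in no ESC WT library. ESC KO libraries, which took no part in choosing either set, called 86.7, 86.0 and 87.4% of the 1458 regions and 18.6, 17.6 and 19.1% of the 7225 regions, against 57.1, 55.3 and 57.8% of all union regions. The shares did not overlap in any library, and the smallest p that an exact two-sided sign-flip permutation over 3 libraries can give is 0.25, which was the value found.

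Kept regions were open in ESCs of both genotypes. The ESC KO libraries called 92.9, 91.9 and 92.4% of the 1127 kept regions (mean 92.4 ± 0.489%, SD, n = 3), against 72.8, 69.8 and 73.2% of the 15304 regions closed in both genotypes (71.9 ± 1.85%). The difference of 20.5 ± 1.5 percentage points was larger than the spread between libraries and had the same sign in 3 of 3 libraries (exact sign-flip permutation, two-sided p = 0.25, the smallest possible). All 3 ESC KO libraries called 986 kept regions (87.5%), where 44.7% of all union regions and 86.2% of those called in 3 of 3 ESC WT libraries had 3 calls, and 8319 (54.4%) of the regions closed in both. A further 65 kept regions were called in 2 and 36 in 1 ESC KO library. The remaining 40 (3.55%) were called in none, against 12.4% of regions closed in both and 29.1% of all union regions. The share of kept regions was therefore near that of all regions open in ESC WT, and it was the regions closed in both genotypes that had fewer ESC KO calls.

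**Figure D1:**
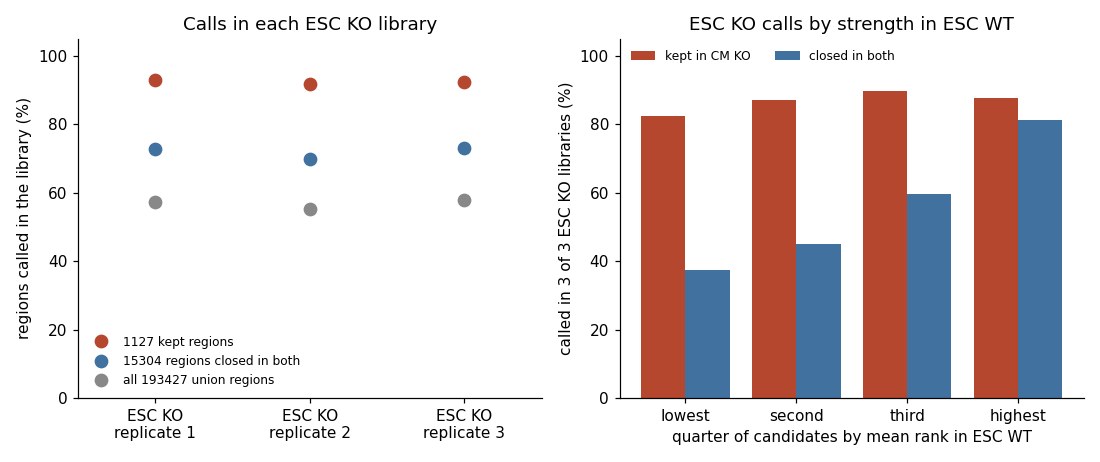
Left, share of regions (%) called in each of the 3 ESC KO libraries for the kept regions, for the regions closed in both genotypes and for all union regions. Right, share (%) called in 3 of 3 ESC KO libraries within each of 4 equal classes of mean rank in ESC WT; kept regions lie between 82.4 and 89.8% in every class, and regions closed in both rise from 37.5 to 81.3%.

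Strength in ESCs moved with both measures, so the candidates were split into 4 equal classes by their mean percentile rank of fold enrichment in the ESC WT lists. From the lowest to the highest class, 136, 177, 274 and 540 candidates were kept regions, or 2.46, 3.20, 4.95 and 9.75% of each class. Within the classes, 82.4, 87.0, 89.8 and 87.8% of kept regions were called in 3 of 3 ESC KO libraries. The same shares of regions closed in both genotypes were 37.5, 45.1, 59.8 and 81.3%. The gap was thus widest in the lowest class, at 82.4 against 37.5%, and narrowest in the highest, at 87.8 against 81.3%.

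The CM libraries could be scored only on regions chosen without them. For each CM library in turn, the rule was applied to the other 8 of the 9 libraries it uses, and the share of the chosen regions called in the left-out library was read. Left-out CM KO libraries called 57.6% (of 1956 regions), 77.8% (of 1449) and 61.8% (of 1824), a mean of 65.7 ± 10.6% (SD, n = 3). The numerator of each of these shares is the 1127 kept regions, so they restate the counts of regions that missed the rule by 1 CM KO call. Left-out CM WT libraries called 27.5% (of 1554), 35.9% (of 1758) and 32.6% (of 1672), a mean of 32.0 ± 4.24%. The means differed by 33.7 percentage points, which is given as a description with no test for that reason. With 1 replicate number left out, so that 2 libraries a group remained, the difference fell to between 3.20 and 9.20 points. On regions chosen in the same way to be closed in both genotypes, left-out CM WT libraries called 6.01, 7.32 and 6.11% and left-out CM KO libraries 5.40, 11.02 and 6.75%. Left-out CM WT libraries called more of the regions of the kept kind (mean 32.0%) than of the closed kind (mean 6.48%). The difference was 25.5 ± 3.65 points, with the same sign in 3 of 3 libraries. The uncalled regions behind these CM WT shares are the 1127 kept regions or the 15304 closed in both genotypes. These shares thus restate counts of the rule as well, and carry no test.

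Regions just outside the rule had values between those of the kept and the closed regions, or near the kept ones. The 1848 candidates called in 2 of 3 CM KO libraries had a median mean rank of 48.5 in ESC WT and 27.1 in CM KO, against 55.7 and 35.8 for kept regions. The 1603 regions that missed the rule by 1 call in CM WT had 58.1 in ESC WT, 37.3 in CM KO and 25.4 in the 1 CM WT library. The rule therefore cuts through a continuous range of calls. Of the kept regions, 234 (20.8%) had a −log10 q of at least 5 in all 6 libraries that must call them, and 145 (12.9%) had a value under 2 in at least 1 of the 6.

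Kept regions sat lower in the CM KO lists than in the ESC lists, which for ESC WT and CM KO describes the lists that chose them and carries no test. Ranks are percentiles of the fold enrichment within each library's own list, and lists of different lengths show no change in level. The median rank of kept regions was 59.97, 56.3 and 56.1 in the 3 ESC WT libraries and 58.9, 56.7 and 60.5 in the 3 ESC KO libraries, where only called regions have a rank. It was 31.9, 39.3 and 35.5 in the 3 CM KO libraries. At 926 of the 1127 regions (82.2%) the mean rank was lower in CM KO than in ESC WT, by a median of 18.6 percentile points. The word kept thus refers to the call. The authors' median fold enrichment of these intervals was 6.27, 6.05 and 6.01 in ESC WT and 4.27, 4.65 and 4.22 in CM KO. Their median length was 335, 331 and 312 bp in ESC WT and 210, 233 and 213 bp in CM KO. A rank of 90 or more was reached in CM KO by 0, 0.444 and 0% of kept regions, in the order of the replicates. Regions closed in both genotypes ranked lower in ESCs than kept regions, with medians of 43.2, 40.7 and 37.0 in ESC WT and 38.7, 37.0 and 38.9 in ESC KO. The ranks by library show ESC medians of 56.1 to 60.5 and CM KO medians of 31.9 to 39.3 for the kept regions.

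**Figure D2:**
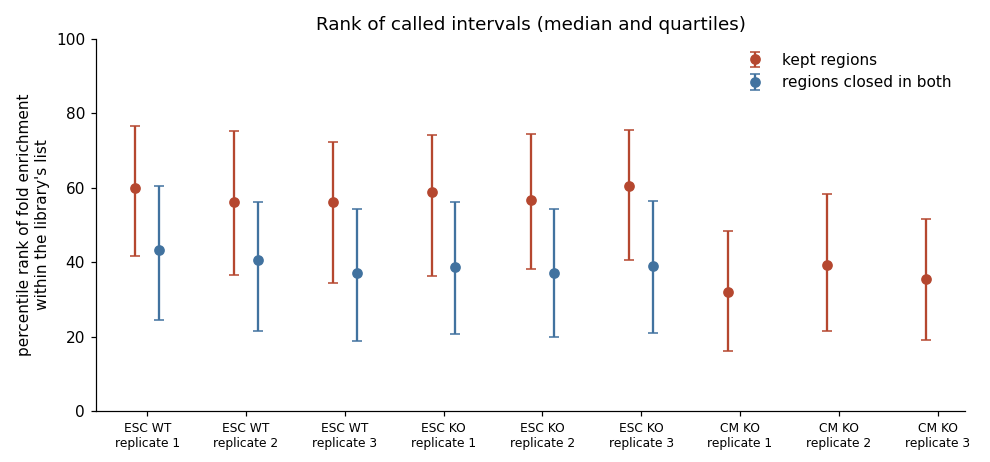
Percentile rank of fold enrichment within each library's list (points, median; bars, quartiles) for kept regions and for regions closed in both genotypes, in each library with a call; the latter have no CM points. The kept regions have medians of 56.1 to 60.5 in the 6 ESC libraries and of 31.9 to 39.3 in the 3 CM KO libraries.

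The summit of an interval is its most covered base. Between an ESC WT and a CM KO library, summits within a kept region lay a median of 24 to 30 bp apart over the 9 library pairs, and 86.7 to 91.0% lay within 100 bp. Pairs of ESC WT libraries had medians of 19 to 20 bp, pairs of ESC WT and ESC KO libraries 20 to 22 bp, and pairs of CM KO libraries 29 to 34 bp. The CM KO calls thus sat at the same place as the ESC calls to within the spread between CM KO libraries. Kept regions had a median length of 459 bp (204 to 1479 bp), against 363 bp for regions closed in both genotypes and 334 bp for all union regions. This length is that of the merged intervals. The rule asks for intervals of more libraries in a kept region than in the others, so the lengths are a description.

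The share of candidates that were kept differed between chromosomes. It was 9.59% on X (51 of 532, 95% exact binomial interval 7.22 to 12.4%), 8.09% on chromosome 8 (92 of 1137) and 7.0% on chromosome 1 (104 of 1486). It was 2.07% on chromosome 16 (16 of 772, interval 1.19 to 3.34%), 2.91% on chromosome 14 (25 of 860) and 3.29% on chromosome 4 (49 of 1491), against 5.09% overall. The share of intervals that a chromosome held also differed between the genotypes in ESCs. Chromosome X held 2.19 ± 0.00899% of all intervals in ESC WT and 2.44 ± 0.0413% in ESC KO (SD, n = 3). Chromosome 14, which carries Mettl3, held 3.83 ± 0.0296% and 3.19 ± 0.00565%. The groups did not overlap on either chromosome (exact permutation test, p = 0.10, the smallest possible). This was so on most chromosomes, and among the 20 other than Y the ESC groups overlapped on only 6, listed below. In the CM groups, X held 1.94 ± 0.0461% in WT and 2.35 ± 0.0240% in KO, and chromosome 14 held 3.86 ± 0.0284% and 3.24 ± 0.0275%. The CM groups overlapped on chromosomes 5, 15 and 18 only. Over the 20 chromosomes other than Y, the share kept and the log2 ratio of ESC KO to ESC WT interval share had a Pearson r of 0.69 and a Spearman coefficient of 0.61. Without chromosomes 14 and X, the farthest from the median, r was 0.58. With the log2 ratio of CM KO to CM WT interval share, r was 0.90, the Spearman coefficient 0.93, and r was 0.88 without chromosomes 14 and X, but the kept regions are themselves called in CM KO and not in CM WT. With the median log2 ratio of chromatin RNA per chromosome, CM KO over CM WT, r was 0.75 and the Spearman coefficient 0.88, and r was 0.72 without chromosomes 17 and 14. For the same RNA ratio of ESC KO over ESC WT, r was 0.74 and the Spearman coefficient 0.83, and r was 0.79 without chromosomes 14 and 17. The RNA medians of CM KO over CM WT were 0.23 for X, 0.22 for chromosome 1, 0.18 for chromosome 8, 0.10 for chromosome 16 and -0.02 for chromosome 14. These correlations are across chromosomes of the same libraries and are descriptions. The part of chromosome-wide differences between the KO and WT lines in the choice of kept regions was not tested. On the 6 chromosomes whose ESC interval shares overlapped between the genotypes (3, 4, 12, 13, 15 and 18), 288 of 6206 candidates were kept (4.64%, interval 4.13 to 5.19%). There the ESC KO libraries called 92.0, 91.7 and 90.3% of kept regions and 72.5, 68.7 and 72.7% of regions closed in both. The interval shares of CM WT and CM KO did not overlap on chromosomes 3, 4, 12 and 13, so these chromosomes are alike between the genotypes in ESCs only.

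**Figure D3:**
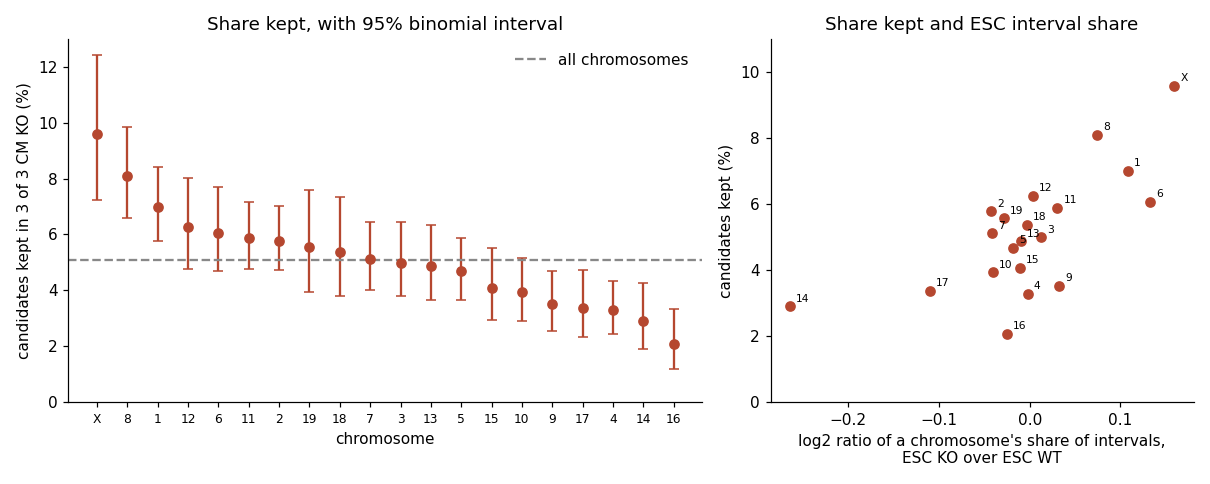
Left, share of candidates (%, open in 3 of 3 ESC WT and 0 of 3 CM WT libraries) that were called in 3 of 3 CM KO libraries, by chromosome, with 95% exact binomial intervals; X is highest at 9.59% and chromosome 16 lowest at 2.07%. Right, the same share against the log2 ratio of each chromosome's share of all intervals, ESC KO over ESC WT, with 14 at the left and X at the right.

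Kept regions lay mostly away from gene starts. Of the 1091 on chromosomes with RefSeq starts in the table used, 63 (5.77%, interval 4.47 to 7.33%) lay within 1 kb of a start, against 4.06% of regions closed in both genotypes and 10.7% of all union regions. The table gives starts for 17492 of the 21900 protein-coding genes, and Dppa3, described below, is not one of them, so regions at other starts are not in this count. A further 471 (43.2%) lay in a protein-coding gene, against 49.8% of regions closed in both and 47.3% of all union regions. Outside lay 557 (51.1%), against 46.2 and 42.1%. The median distance to the nearest start was 23064 bp, against 23532 bp for regions closed in both and 20298 bp for all. More than 50000 bp away were 28.6% of kept regions, 29.3% of regions closed in both and 26.1% of all union regions. From a kept region to the nearest other one the median was 446908 bp, and 31 (2.75%) lay within 10 kb of one. The nearest region closed in both genotypes was 38150 bp away in the median, and 190 kept regions (16.9%) had one within 10 kb. The densest stretches of 100 kb held 3 kept regions each. One, chr1:59563037-59609202 in Gm973, held 10 union regions of which 0 were closed in both, and its 3 kept regions were called in 3 of 3 ESC KO libraries. Another, chr13:56028989-56110100, lay at Macroh2a1, which encodes the histone variant macroH2A1. It held 11 union regions, 2 of them closed in both, and 2 of its 3 kept regions were called in 3 of 3 ESC KO libraries. The third lay on chromosome 18 among the gamma protocadherin genes. It held 18 union regions, 0 of them closed in both, and 2 of its 3 kept regions were called in 3 of 3 ESC KO libraries.

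The 10 kept regions with the highest lowest rank over the 6 required libraries ranked high in both sets of lists, as that choice demands. The first, chr3:56827193-56827908, lay outside protein-coding genes and ranked 92.6, 91.1 and 88.2 in ESC WT, 71.5, 86.2 and 95.7 in ESC KO and 80.3, 87.4 and 79.7 in CM KO. The second, chr8:40441526-40442157 in Zdhhc2, a palmitoyltransferase gene, ranked 91.2, 76.8 and 75.8 in ESC WT and 86.2, 85.6 and 79.7 in CM KO, and was called in 2 ESC KO libraries at 41.6 and 34.8. Its CM KO ranks lay within the range of its ESC WT ranks, and its ESC KO ranks lay below both. A region in Gnaq, a G protein alpha subunit gene, at chr19:16190707-16191302 ranked 71.9, 85.2 and 83.5 in ESC WT and 79.5, 78.6 and 89.7 in CM KO. Others lay in Smg1, a kinase of nonsense-mediated decay (chr7:118170208-118170775), in Cdh13, a cadherin gene (chr8:118777271-118777855), and in Dyrk1a, a kinase gene (chr16:94627597-94628058). A region at chr2:116923000-116923648 ranked 97.4, 99.1 and 99.0 in ESC WT but 64.7, 74.3 and 71.7 in CM KO. By contrast chr1:12372717-12373358 ranked 65.2, 72.7 and 67.8 in ESC WT and 86.2, 90.3 and 88.6 in CM KO. The lowest of the 6 ranks had a median of 17.9 over all kept regions and a highest value of 79.7, so most kept regions ranked low in at least 1 required library.

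Of 30 genes of the pluripotency list, 2 held a kept region (6.67%), and 8 held a region closed in both genotypes (26.7%), where 2.52 and 24.4% of all 21900 protein-coding genes did. Dppa3, a maternal factor and naive-state marker, had one over the first bases of its body at chr6:122626166-122626457, with ranks of 12.9, 19.8 and 14 in ESC WT, 13.5, 31.2 and 35.5 in ESC KO and 26.5, 28.9 and 24.6 in CM KO. Its chromatin RNA was 0.148 and 0.378 RPKM in WT and KO ESCs and 0 and 0.269 RPKM in the WT and KO cultures, all under 1 RPKM. Tfap2c, an AP-2 factor of naive ESCs and germ cells, had one just beyond its far end at chr2:172558785-172559355, with ranks of 51.9, 29.9 and 49.4 in ESC WT, 20.3, 22.3 and 44.0 in ESC KO and 23.8, 34.4 and 16.5 in CM KO. Its RNA was 0.720, 1.65, 0.248 and 0.668 RPKM in the same order. In both genes the RNA was higher in KO than in WT in ESCs and in CM, with 1 library each.

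Among chromatin regulators, 2 of 22 genes held a kept region (9.09%) and 10 a region closed in both (45.5%), beside the 2.52 and 24.4% of all genes. Jarid2, a cofactor of Polycomb repressive complex 2, had one at chr13:44851378-44852123 inside the gene, with ranks of 76.3, 78.3 and 62.5 in ESC WT, 62.4, 68.2 and 57.9 in ESC KO and 22.3, 53.3 and 21.1 in CM KO. Its RNA was 8.80 and 7.14 RPKM in WT and KO ESCs and 2.95 and 3.23 RPKM in the WT and KO cultures. The ESC ranks lay above all CM KO ranks, and the RNA of the CM libraries lay below that of the ESC libraries in both genotypes. Kdm2b, a histone demethylase of a Polycomb complex, had a low-ranked one at chr5:122950568-122950954, with ranks of 3.82 to 20.9 in ESC WT and 10.5 to 18.4 in CM KO, and RNA of 1.53, 0.579, 0.875 and 0.786 RPKM.

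Genes of other lineages held the remaining listed cases. Col5a2, a fibrillar collagen chain, had a region at chr1:45407607-45407990 in its body. It ranked 98.1, 92.2 and 96.8 in ESC WT, 84.4, 89.0 and 86.5 in ESC KO and 31.9, 30.6 and 59.8 in CM KO, while its RNA was 0.00582 and 0.0144 RPKM in ESC WT and KO and 0.843 and 0.524 in CM WT and KO. The region ranked highest in the ESC libraries, where the RNA was lowest. Mef2c, a muscle transcription factor, had one at chr13:83662068-83662561 inside the gene and at the start of the overlapping model Gm52044. It ranked 38.7, 40.7 and 5.54 in ESC WT, 68.5, 57.9 and 60.5 in ESC KO and 60.1, 46.7 and 64.3 in CM KO, so that the KO libraries lay above the WT ESC libraries. Mef2c RNA was 0.00592, 0.00437, 0.665 and 0.359 RPKM. The region at Myl2, the ventricular myosin light chain, lay in the shared body of Myl2 and Ccdc63 at chr5:122111410-122112219, ranked 46.3 to 54.0 in ESC WT and 4.19 to 25.4 in CM KO, and Myl2 RNA was 0.1005 RPKM in CM WT and 0 in the other libraries. The neural genes Elavl3 and Map2 completed the 9. The Elavl3 region at chr9:22051797-22052191, whose promoter is printed above, ranked low in all lists, at 4.90 to 10.2 in ESC WT and 7.35 to 29.9 in CM KO, and its RNA was 0.320, 0.200, 0.0771 and 0.0769 RPKM. All 9 regions were called in 3 of 3 ESC KO libraries, as were 87.5% of all kept regions and 44.7% of all union regions. No gene of the lists for primed pluripotency, smooth muscle, endoderm, blood and endothelium, trophoblast, germline, m6A machinery, or FGF and WNT signalling held a kept region, which in lists of this size is near the 2.52% of all genes.

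**Figure D4:**
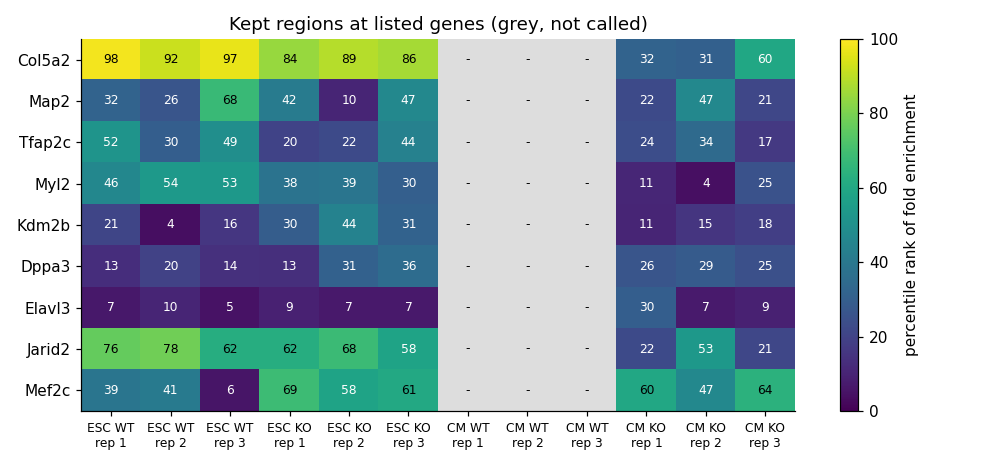
Percentile rank of fold enrichment within each library's list for the 9 kept regions in listed genes (rows) in the 12 ATAC-seq libraries (columns); grey cells are libraries without a call, which by the rule include all CM WT libraries. Col5a2 and Jarid2 rank highest in ESC WT, up to 98.1 and 78.3, and Mef2c ranks higher in ESC KO (57.9 to 68.5) than in ESC WT (5.54 to 40.7).

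The kept regions within 1 kb of a start lay at 33 protein-coding genes, 25 of which were in the RNA tables. Of these 25, 20 were under 1 RPKM in all 4 libraries and 8 were under 0.1 RPKM in all 4. Of the 253 genes with a start in a region closed in both, 190 and 85 were, and 10624 and 3904 of all 15909 genes with RNA values were. The shares for kept starts thus lay nearer those of the closed kind than those of all genes, and with 25 genes no difference was tested. The median of the mean level was 0.168 RPKM, against 0.169 for genes with a start in a region closed in both, 0.533 for genes with a start in any region called in 3 of 3 ESC WT libraries, and 0.382 for all genes in the tables. The medians of the kept and the closed kind lay next to each other, below that of all genes. Zbtb32 had 0.655 and 0.397 RPKM in WT and KO ESCs and 0.0774 and 0.127 RPKM in the cultures. Adad2 was at 0.137 RPKM in ESC WT and listed at 0 in the other 3 libraries. Rnf212 stayed between 0.00149 and 0.0101 RPKM, Dmrtb1 between 0.00422 and 0.0179, and Slc2a5 between 0.0205 and 0.0646 RPKM. Pax5, a B-cell factor, stayed between 0.00289 and 0.0268 RPKM, and Runx3, a Runt-domain factor of T cells and neurons, between 0.00593 and 0.0106 RPKM. Arhgef2 was higher in CM, at 1.26 RPKM in WT and 1.09 in KO, than in ESCs, at 0.531 and 0.598 RPKM. The 4 genes with a mean of at least 1 RPKM were Sugt1, a chaperone cofactor, Snx18, a sorting nexin, Myo10, an unconventional myosin, and Swt1, an RNA endonuclease. Swt1 was at 0.897 RPKM in CM WT and 1.14 in CM KO, and Sugt1 at 1.09 and 0.997 RPKM.

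A kept region lay in or within 1 kb of 551 protein-coding genes, 2.52% of 21900. Of these, 525 held 1, 20 held 2, 3 held 3 and 3 held 4. The genes with 4 were overlapping models on chromosome 18 that share the same regions. Glis3, a Krüppel-like zinc finger factor, Gm973 and Ppp2r2c, a regulatory subunit of protein phosphatase 2A, held 3 each, and Ankfn1, Aoah, Auts2 and Ccdc60 were among those with 2.

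Chromatin RNA of genes with a kept region did not stand above that of other genes in CM KO. Of 498 such genes in the RNA tables, 107 (21.5%) had a mean of at least 1 RPKM over the 4 libraries, against 25.1% of all 15909, so the statements that follow are about those 107. On the log2(RPKM + 1) scale, their median ratio of CM KO to CM WT was 0.09 (quartiles -0.02 and 0.19), against 0.11 for 1104 genes with a closed and no kept region and 0.13 for all 3988 genes. The ratio was above 0 for 77 of the 107 (72.0%, interval 62.5 to 80.2%), where 77.5% of all genes were, and 0 differed by 2-fold or more, where 0.201 and 0.326% of all genes were. Relative to the median shift of all genes, 40 of the 107 (37.4%) lay above it, against 50.0% of all genes. The highest were Fam169a at 0.43, Pgam1, a glycolytic mutase, at 0.42, Akap1, a mitochondrial kinase anchor, at 0.40, and Cep55, an abscission protein, at 0.38. The lowest were Camk1d, a calmodulin-dependent kinase, at -0.60, Myh9, a nonmuscle myosin heavy chain, at -0.33, and Ptbp1, a splicing repressor, at -0.26. Camk1d had 3.60 and 5.81 RPKM in WT and KO ESCs and 3.69 and 2.09 RPKM in the WT and KO cultures. With 1 library a group, these ratios have no replicate check and no test was made.

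**Figure D5:**
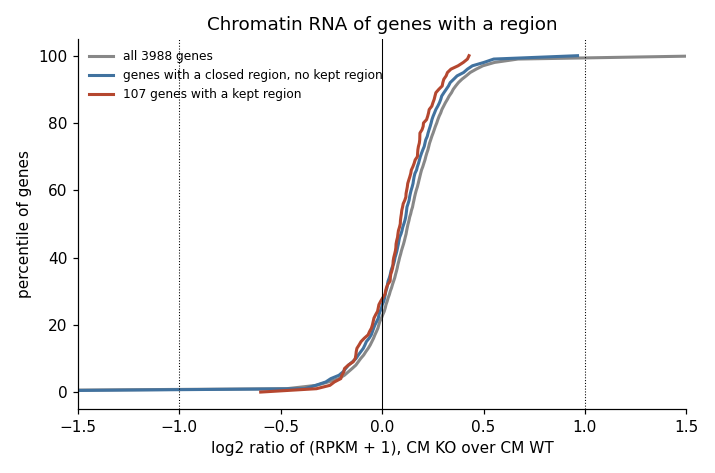
Cumulative distribution (percentile of genes) of the log2 ratio of RPKM + 1, CM KO over CM WT, for the 107 genes with a kept region, for genes with a closed and no kept region, and for all 3988 genes with a mean of at least 1 RPKM; dotted lines mark 2-fold. The curve of the 107 genes lies slightly left of that of all genes, with medians of 0.09 and 0.13, and spans -0.60 to 0.43.

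From ESCs to CM the same 107 genes changed in both directions. In WT, the median log2 ratio of CM to ESC was -0.16, against -0.26 for all genes, with 6 genes higher and 9 lower by 2-fold or more (2.43 and 5.34% of all genes). In KO, it was -0.01 against -0.05, with 4 higher and 3 lower (2.86 and 1.83% of all genes). Between the ESC genotypes it was -0.06 against -0.08, with 0 past 2-fold, where 0.0752 and 0.0502% of all genes were higher and lower. The WT and KO comparisons between ESC and CM use different libraries, while those between genotypes share them with both.

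The share of genes with an m6A position was higher among genes with a kept region than among all genes on each of the 4 lists, and the interval of the share left out that of all genes on the CM KO list alone. On the CM KO list, 82 of the 107 (76.6%, interval 67.5 to 84.3%) had a position, against 69.4% of genes with a closed and no kept region and 63.1% of all 3988. On the CM WT list the shares were 88.8, 85.7 and 81.8%, on the ESC WT list 80.4, 81.8 and 73.7%, and on the ESC KO list 82.2, 82.3 and 75%. The genes differed in length, with medians of 73.7 kb for genes with a kept region, 46.8 kb with a closed and no kept region, and 23.9 kb for all, and the part of length in these shares was not tested. Jarid2 held 59 and 60 positions in ESC WT and ESC KO and 14 and 8 in CM WT and CM KO. Nedd4, a ubiquitin ligase, held 25, 19, 34 and 16 in the same order. Each list is 1 library, so no spread between libraries is known. The share of all 3988 genes with a position was 75% on the ESC KO list and 73.7% on the ESC WT list. It was 63.1% on the CM KO list and 81.8% on the CM WT list. Mettl3 chromatin RNA was 1.73 and 1.28 RPKM in WT and KO ESCs and 1.18 and 1.07 RPKM in the WT and KO cultures. KO is therefore used as a sample label, and loss of m6A was not tested.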

How the data were processed

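Open chromatin was measured in 12 ATAC-seq libraries, 3 in each of 4 groups taken from the sample titles, and chromatin RNA and m6A in 1 library per group. Tools listed in the submitters' processing notes, without role or version, are HISAT2, Bowtie, MACS2, Picard and cutadapt, and the build listed is mm10. Each deposited peak list holds, per interval, a score, a fold enrichment (a ratio), −log10 p and −log10 q in the layout of MACS2, so the authors called peaks per library. The authors deposited chromatin RNA as RPKM, with no counts, so depth is unknown, and the m6A lists as positions, of which only the presence was used. The peak score was not used.

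Intervals were merged at 1 bp, a library counted as called where any of its intervals lay in the union region, and fold enrichment was used only as a rank within its list. The merging was tested on simulated data. RNA was compared on log2(RPKM + 1) among genes with a mean of at least 1 RPKM. Gene bodies, starts and promoter sequences came from RefSeq (GRCm38.p6, the build also called mm10), and regions on chromosome 18 are not in counts by start. Binomial intervals are exact (Clopper-Pearson, 95%) and cover counting error only. Regions and genes were named by set choices. These were the 14 gene lists, the 10 regions with the highest lowest rank, the genes with most regions, and the 3 densest stretches. Genes with a region at the start and a mean of at least 1 RPKM were named too. Outside these choices are the other unlisted genes with a region at the start, the genes with the highest and lowest RNA ratios, and Nedd4. The regions and lists were chosen with earlier results of these data known. Replicate numbers were checked for pairing and did not pair the samples. Python 3.11.15, pandas 2.3.3, NumPy 2.4.6 and SciPy 1.17.1 were used. Alternatives covered the q threshold, the overlap, the number of intervals, the flank, the pseudocount, the filter and left-out libraries.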

Additional observations from a re-analysis of the deposited data

How the results depend on the processing

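The number of kept regions was 884 to 1424 when intervals needed a −log10 q of at least 2 or 5, had to cover 50% of the region, were taken in the same number per library or were merged by summit, and it was 234 when ESC WT and CM KO calls needed a −log10 q of at least 5 but any CM WT interval counted. Leaving out 1 library gave 1151 to 1956 regions, most without CM KO replicate 1. The ESC KO difference was 19.7 to 22.5 points over its alternatives. The left-out difference was 31.1 to 45.1 points over the caller settings, and 3.20 to 9.20 with 2 libraries a group. The share at a start was 9.17% with a flank of 2 kb. The share of RNA ratios above 0 was 49.6% with no filter (all genes 52.8%), 50.0% for the 4 genes with a region at the start and 37.4% relative to the median of all genes. In alternatives added after seeing the data, 4.64% of candidates were kept on the 6 chromosomes with overlapping ESC interval shares and 4.63% without X, 1 and 8. The sequence window of another width was not run, since only promoter sequences were used. No depth or RNA quality per library is known beyond the background pileup.

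Samples with the same replicate number did not deviate together: the correlations of their deviations from the group means were -0.00961 to 0.00585, against -0.0107 to 0.0127 for different numbers. With the replicate number as a block, the left-out difference was 33.7 points, as without it, and is a description, since the left-out shares restate the counts of the rule.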
